A study of Mus musculus with 3 samples.

Results

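Complement components and regulators were followed in primary cultures of PyMT tumor cells with and without RANK ligand (RL). The genes were C3, 4 further components and enzymes of the classical and alternative pathways (C2, C4b, Cfb and Cfd), the alternative pathway stabilizer Cfp, and the inhibitors Serping1, Cd55 and Cd59a. These 9 genes were grouped by their role in the cascade, with earlier results of these data known, out of 21154 gene symbols with a matched probe on the array. All 9 had a probe, and 8 were bright enough to be tested among 21743 genes and transcripts. Cfd was the gene that did not pass the filter on dim probes.

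Complement is a cascade of plasma and cell-surface proteins that tags cells and particles for removal and recruits leukocytes. The classical pathway starts with C1q and cleaves C4 and C2, the alternative pathway uses factor B, factor D and properdin, and both assemble an enzyme that cleaves C3. Host cells are spared through inhibitors such as the C1 inhibitor in the fluid phase and CD55 and CD59 on the membrane. Much of plasma complement comes from the liver, but epithelial cells, fibroblasts and macrophages also make components, and C3 and factor B are known to be inducible by inflammatory signals.

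The cultures came from mammary tumors of MMTV-PyMT mice, in which the mouse mammary tumor virus promoter drives the polyoma middle T oncogene in mammary epithelium. The methods of the study describe acini grown on Matrigel from transplanted tumors of C57BL/6 background, with RL added 24 h after plating. They name transplants with and without RANK and do not say which served for the RL arrays. From each of 3 tumors, called tumors 1, 2 and 3 here, a control culture and a culture given RL for 24 h shared 1 two-color Agilent array, with the medium of both holding serum, cholera toxin, insulin and EGF. The labels give the RL dose as 1000 µg/mL, while the methods of the study give a lower one. RL was labeled with Cy3 for tumors 1 and 3 and with Cy5 for tumor 2, and the 3 arrays shared a slide and a scan. The methods describe a dye swap for each sample, but 1 array per tumor was analysed here, so dye and RL cannot be told apart within a tumor. The arrays were tied to the culture experiment by their labels, since the data statement of the study names a different series. Between 54.6% and 56.2% of the 55681 probes of a channel were well above background. All 9 epithelial markers, among them Epcam, Cdh1 and Krt8, were well above background in all 6 channels. Every value of change is a log2 ratio of RL over control within an array, so that 1 is a doubling. With 3 arrays, precision is limited by their number. The SE, interval and p of limma are moderated, which means that the variance of a gene is drawn towards that of all genes (6.66 prior beside 2 residual degrees of freedom). Values from the gene's own 3 tumors (2 degrees of freedom), a comparison chosen after seeing the data, are given beside them for the members. Because RNA came from whole cultures, fewer cells that make a transcript and less of it per cell cannot be told apart.

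C3, whose cleavage is the step on which the pathways converge, had the largest mean log2 ratio of all 21743 genes and transcripts tested. This rank leaned on tumor 1, without which C3 was at rank 5, and on the processing, since C3 came first in 12 of 19 alternatives (some of which change the test and not the means) and at ranks down to 10 in the other 7, the lowest with the scanner's processed signals. Tumor 1 had a ratio of 1.92, tumor 2 of 0.56 and tumor 3 of 0.57, so RL cultures were higher in all 3 tumors, though not in tumor 3 where arrays were centered on their median in place of loess, and tumor 1 stood far above the other tumors after loess. The mean over 3 tumors was 1.01, a 2.02-fold difference, with a moderated SE of 0.23 and a moderated 95% interval, not adjusted for the number of genes, from 0.50 to 1.53. From the tumors' own spread the SE was 0.45 and the interval, from −0.93 to 2.96, included 0. The adjusted p of limma over all genes was 0.328, so C3 did not pass the threshold of 0.05. A separate C3 probe gave 1.92, 0.40 and 0.49 in the same order of tumors.

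Error between spots can be read for C3, because its main probe is printed in 10 spots on each array. On the scanner's own scale, the mean log2 ratio of these spots was 1.92 ± 0.05 (SD over spots) in tumor 1, 0.52 ± 0.04 in tumor 2 and 0.60 ± 0.07 in tumor 3. Spots of tumor 1 lay between 1.86 and 2.04, clear of those of tumors 2 and 3, which together covered 0.44 to 0.74. Spots of an array share labeling, dye and normalization, so their SD holds none of the error of those steps and does not show how repeat cultures of a tumor would vary. The SD of the C3 ratio between tumors, 0.78, holds all of these together.

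The level of the same probe in each channel shows where this spread lay. The normalized log2 signal of C3 in the control cultures of tumors 1, 2 and 3 was 13.61, 14.51 and 14.55. With RL it was 15.53, 15.07 and 15.13. After loess, tumor 1 had a lower control value and a higher RL value than tumor 3. With median centering the ratio of tumor 3 was −0.04, so its RL value did not lie above its control. The mean ratios of all genes had a median of −0.11 in that setting, so the sign of a ratio this near 0 depends on where the arrays are centered. Since the control was in Cy5 for tumors 1 and 3 and in Cy3 for tumor 2, levels of tumors 1 and 3 can be set side by side without a change of dye, whereas those of tumor 2 cannot.

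**Figure D1:**
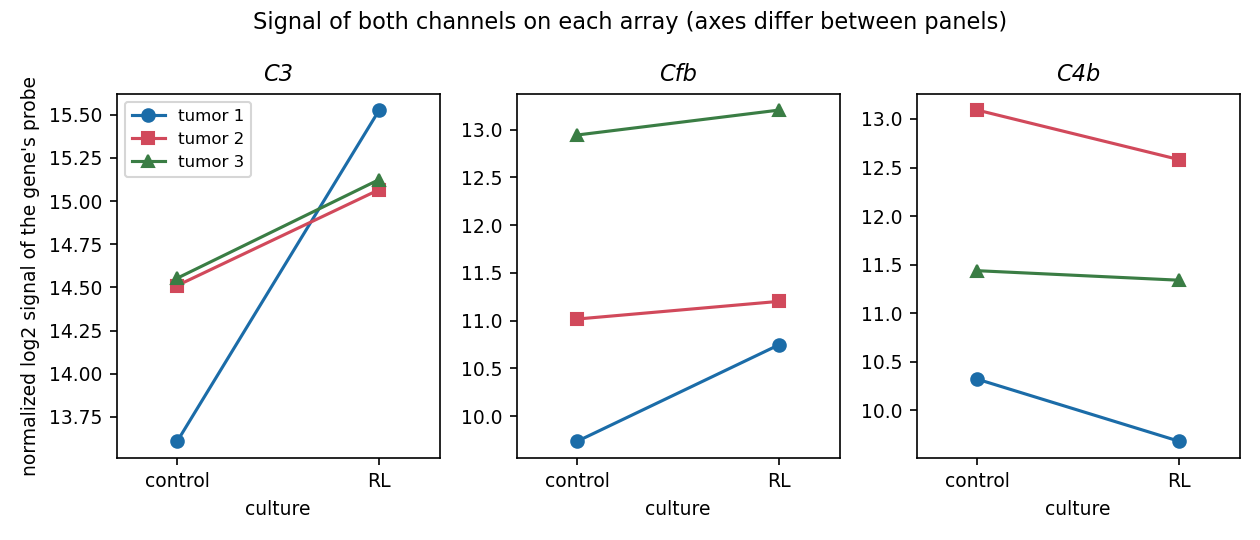
Normalized log2 signal (vertical axis, a different range in each panel) of the probes of C3, Cfb and C4b in the control and RL channel of each array, with a line joining the cultures of 1 tumor. C3 goes from 13.61 to 15.53 in tumor 1, and the C4b line descends in each tumor, which for tumor 2 does not hold after median centering.

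The promoter of C3 is shown because C3 had the largest ratio, and that of Cd55 because it encodes a membrane inhibitor of the enzyme that cleaves C3 and its mean ratio was near 0. RefSeq promoter sequences (GRCm38.p6) were matched for 5 of the 9 genes, C3, Cfd, Cfp, Cd55 and Cd59a, and entries for C2, C4b, Cfb and Serping1 were missing. The 250 bases before the annotated start were searched on both strands for the C/EBP letters TTGCNNAA, the GAS letters TTCNNNGAA and the NF-κB consensus motif, a choice made with the values known. The window of C3 is chr17:57228137-57228386 on the minus strand and that of Cd55 is chr1:130462745-130462994 on the minus strand. Capitals mark a match to TTGCNNAA, the only one of these motifs found in the 5 windows.
C3: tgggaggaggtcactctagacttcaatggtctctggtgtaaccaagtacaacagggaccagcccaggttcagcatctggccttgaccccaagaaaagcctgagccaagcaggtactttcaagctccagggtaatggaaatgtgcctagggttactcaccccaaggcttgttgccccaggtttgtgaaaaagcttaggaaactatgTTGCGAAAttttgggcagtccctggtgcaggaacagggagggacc
Cd55: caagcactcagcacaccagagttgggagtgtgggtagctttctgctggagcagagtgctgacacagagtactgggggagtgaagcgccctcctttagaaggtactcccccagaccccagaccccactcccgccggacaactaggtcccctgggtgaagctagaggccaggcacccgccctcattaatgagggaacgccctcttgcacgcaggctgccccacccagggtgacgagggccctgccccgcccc
In C3 the match ran from 45 to 38 bases before the start. Among 32851 promoter windows of this length, 9.56% held TTGCNNAA, 7.02% held TTCNNNGAA and 7.25% held the NF-κB consensus. A match describes the letters in the window and is no evidence that a factor binds there, and a window without one says nothing of the factor.

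Cfb, the protease that supplies the active subunit of the alternative pathway's C3-cleaving enzyme, was the other measured gene of the 9 that was higher with RL in each tumor, again except in tumor 3 after median centering. Tumors 1, 2 and 3 had log2 ratios of 1.01, 0.18 and 0.26. As for C3, tumor 1 was well above the other tumors after loess. The mean over 3 tumors was 0.49, with a moderated SE of 0.14, a moderated 95% interval from 0.16 to 0.81 and an adjusted p of 0.488 by limma. From the tumors' own spread the SE was 0.26 and the interval, from −0.65 to 1.62, included 0. The control signal of tumors 1, 2 and 3 was 9.74, 11.02 and 12.94 on the log2 scale, and the RL signal was 10.75, 11.20 and 13.20. Control and RL values of Cfb overlapped across tumors, and the control cultures of tumors 1 and 3, which share a dye order, differed more than the paired cultures of any tumor did. After loess, tumor 1 had a lower control signal and a larger ratio than tumor 3 for both C3 and Cfb, while levels of tumor 2 were measured in the other dye and are not ranked with them. With 3 tumors, no relation between starting level and ratio was tested.

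Without tumor 1, the mean of C3 was 0.56 and that of Cfb 0.22, so this tumor made up much of both means. Both means stayed above 0 under all 19 alternatives, some of which change the test or filter and leave these means as they were. Median centering, which leaves in place any dye difference that varies with intensity, gave 1.19, 1.32 and −0.04 for C3 and 0.53, 0.73 and −0.28 for Cfb in tumors 1, 2 and 3, so the order of the tumors rests on the loess step.

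Properdin, encoded by Cfp, stabilizes the alternative pathway's enzyme and is known as a product of leukocytes. Tumors 1, 2 and 3 had log2 ratios of −0.15, 0.14 and −0.16, on both sides of 0. The moderated 95% interval of the mean, −0.06, ran from −0.24 to 0.13, and that from the tumors' own spread from −0.48 to 0.36. Cfd encodes factor D, or adipsin, the protease that cleaves factor B and is best known from adipocytes. Its probe was well above background in the control channel of tumor 1 and in no other channel, so neither condition gave a level and no fold is given. Of 7 adipocyte markers, Adipoq, Plin1, Cidec and Lep were not well above background in any of the 6 channels, while Fabp4, Lpl and Retn were so in all 6.

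C4b, the classical pathway component whose fragment binds covalently to targets, was lower with RL in all 3 tumors, though not in tumor 2 after median centering. In tumors 1, 2 and 3 the log2 ratio was −0.64, −0.51 and −0.10. With loess, tumors 1 and 2 lay close together and tumor 3 near 0, whereas median centering gave −1.13, 0.14 and −0.59, so this pattern among tumors rests on the loess step. The mean over 3 tumors was −0.42, with a moderated SE of 0.10 and a moderated 95% interval from −0.65 to −0.18, and limma gave an adjusted p of 0.393. From the tumors' own spread the SE was 0.16 and the interval, from −1.12 to 0.29, included 0. The log2 signal of C4b in the control cultures was 10.32, 13.09 and 11.44 in tumors 1, 2 and 3, and it was 9.68, 12.58 and 11.34 with RL. Baseline levels thus differed between tumors by more than any ratio, and the gap between tumors 1 and 3, which share a dye order, involves no change of dye. Mouse C4b has a near-identical neighbor, C4a, for which no probe was matched, and whether the C4b probe also reads its transcript was not tested.

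C2 encodes the protease that joins the C4 fragment in the classical C3-cleaving enzyme. In tumors 1, 2 and 3 its log2 ratio was −0.35, 0.17 and −0.06, with a moderated 95% interval of the mean from −0.30 to 0.14, or from −0.72 to 0.56 by the tumors' own spread. The tumors lay on both sides of 0, and leaving out tumor 1 turned the mean from −0.08 to 0.05.

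The mean ratios of the inhibitors were close to 0, with Cd59a furthest from it at −0.05, or −0.22 after median centering. Serping1 encodes the C1 inhibitor, which inactivates the proteases that start the classical pathway, and its log2 ratio was 0.02, −0.08 and 0.09 in tumors 1, 2 and 3. Its other probe gave −0.08, 0.03 and 0.07, so the probes differed in sign in tumors 1 and 2, at sizes under 0.1. Cd55, which speeds the decay of C3-cleaving enzymes on the membrane, had ratios of −0.14, 0.10 and 0.12. Cd59a, which blocks assembly of the membrane attack complex, had ratios of −0.03, −0.13 and 0.01. None of these inhibitors was on the same side of 0 in all 3 tumors. Their moderated 95% intervals ran from −0.15 to 0.17 for Serping1, from −0.15 to 0.21 for Cd55 and from −0.21 to 0.11 for Cd59a, and those from the tumors' own spread were wider, from −0.20 to 0.22, from −0.33 to 0.39 and from −0.23 to 0.13, which leaves room for differences in either direction. The difference between C3 and an inhibitor was not tested.

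**Figure D2:**
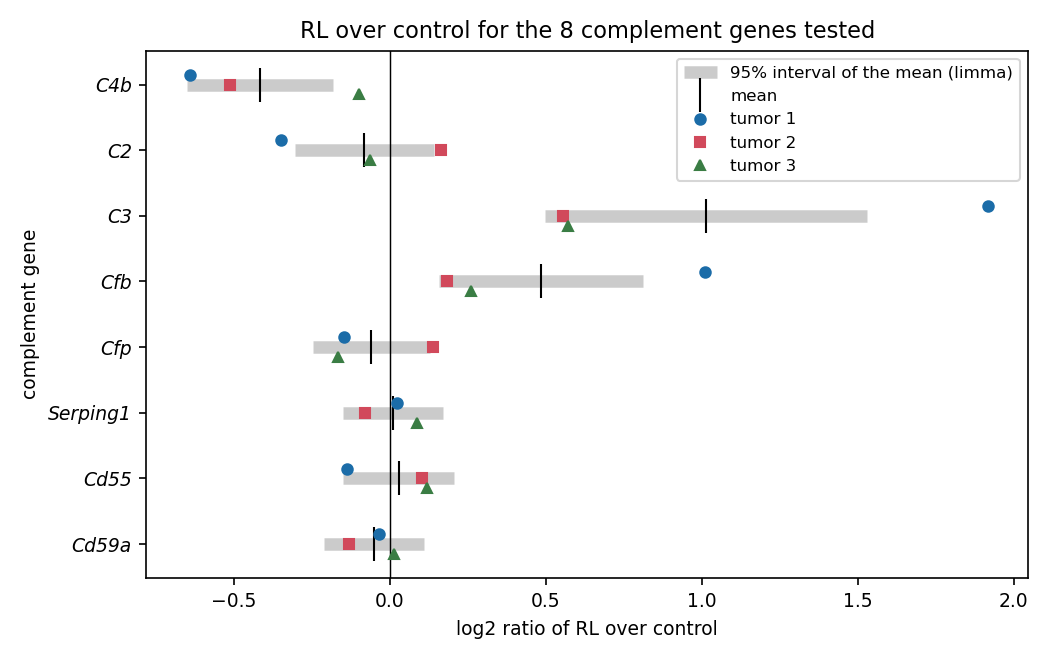
Log2 ratio of RL over control (horizontal axis) of the 8 tested complement genes in each tumor, with the mean and its moderated 95% interval from limma, not adjusted for the number of genes. C3 and Cfb lie right of 0 and C4b left of 0 in all 3 tumors, and the other genes lie on both sides. After median centering, where the mean ratios of all genes had a median of −0.11, the sign turns in tumor 3 for C3 and Cfb and in tumor 2 for C4b.

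Across the 8 tested genes, limma called 0 higher and 0 lower with RL, against 0.0046% of all genes and transcripts called higher and 0.023% called lower. At an unadjusted p under 0.05, 2 of them were higher (C3 and Cfb) and 1 was lower (C4b), beside 761 higher and 778 lower among all 21743. From each gene's own spread no gene passed the adjusted threshold, the unadjusted p of C3, Cfb and C4b was 0.154, 0.207 and 0.126, and 618 of all genes were higher and 594 lower at an unadjusted p under 0.05. With a term for the dye in the model, C3, Cfb and C4b passed, with log2 ratios of 0.90, 0.41 and −0.44 and adjusted p-values of 2.89e-05, 0.0135 and 0.00229. Tumor 2 alone has RL in Cy5, so in that model the dye and this tumor cannot be told apart, and the residual spread comes from tumors 1 and 3 alone. These p-values rest on moderation, with 31.6 prior beside 1 residual degree of freedom, and from each gene's own spread the unadjusted p was 0.366, 0.426 and 0.312. That model called 0.57% of all genes higher and 0.768% lower. By rank product, which uses only the order of genes within each array, C3 passed with an adjusted p of 0.000336, beside 0.147% of all genes called higher and 0.207% called lower. The p of the rank product takes the 3 arrays as independent, so any dye effect shared by tumors 1 and 3 could make it too small. Over all 19 alternatives the adjusted p went from 7.57e-07 to 1.00 for C3, from 0.000139 to 1.00 for Cfb and from 0.00229 to 1.00 for C4b. Calls for these 3 genes therefore depended on the model. The direction of their means did not change, though some alternatives leave the means as they were. Across genes, which are not independent replicates, the ratios of tumors 1 and 3, with RL in the same dye, had a Pearson's r of 0.45, and those of tumor 2 had an r of −0.11 with tumor 1 and −0.11 with tumor 3.

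**Figure D3:**
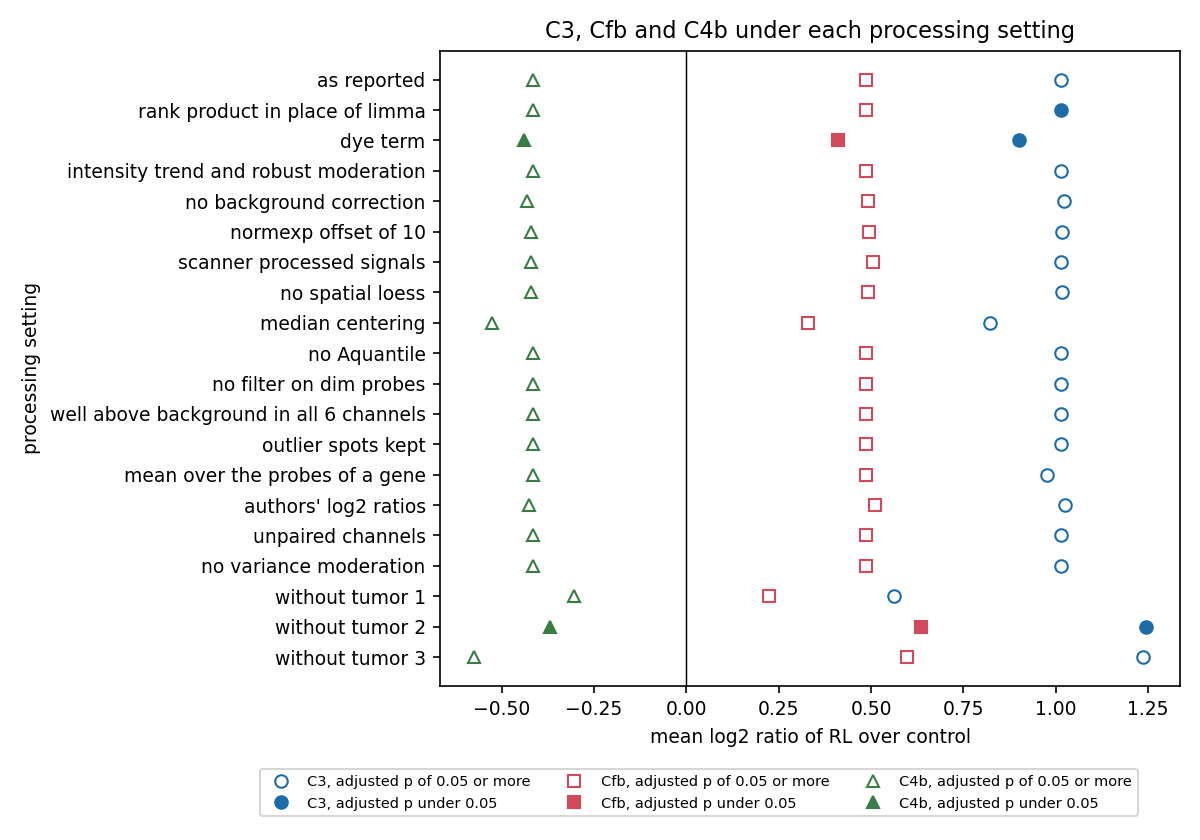
Mean log2 ratio of RL over control (horizontal axis) of C3, Cfb and C4b as reported and under each of 19 alternatives (vertical axis), with filled symbols where the adjusted p was under 0.05. All C3 and Cfb values lie right of 0 and all C4b values left of 0, and filled symbols appear with the dye term, with the rank product for C3, and without tumor 2. Some alternatives change only the test or filter and repeat the reported mean.

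The median log2 ratio of the 8 tested genes was −0.02, beside −0.0020 for all genes tested, and it was −0.08, 0.12 and 0.05 in tumors 1, 2 and 3. Higher values in all 3 tumors were seen for 2 of the 8 genes, against 14.1% of all genes, and lower values in all 3 tumors for 1 of the 8, against 13.6%, and for none of the 3 genes (C3, Cfb and C4b) did this hold after median centering. The median of the 8 genes thus lay near that of all genes, with C3 and Cfb above and C4b below the other members. Of these genes, 0.156% of genes lay above Cfb and 99.7% above C4b by mean ratio. Without tumor 1 Cfb was at rank 367, and without tumor 2 C4b was at rank 450 from the lowest.

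Cfb, C2 and C4b lie close together in the class III region of the major histocompatibility complex, and in the RefSeq gene table the microRNA gene Mir6972 is the only gene listed between Cfb and C2. Neighboring genes served to show whether the whole stretch moved. Of the 20 other genes between and around them, 11 were tested, and their mean log2 ratios ran from −0.08 for Cyp21a1 to 0.17 for Zbtb12, with a median of 0.03. None of these 11 was called by limma, with or without a dye term, or by rank product, and 0 had an unadjusted p under 0.05. Cfb at 0.49 lay above and C4b at −0.42 below the means of these neighbors, and C2 at −0.081 lay just below the lowest of them, Cyp21a1 at −0.079. Nelfe, next to Cfb among the tested genes, had a mean of −0.08.

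**Figure D4:**
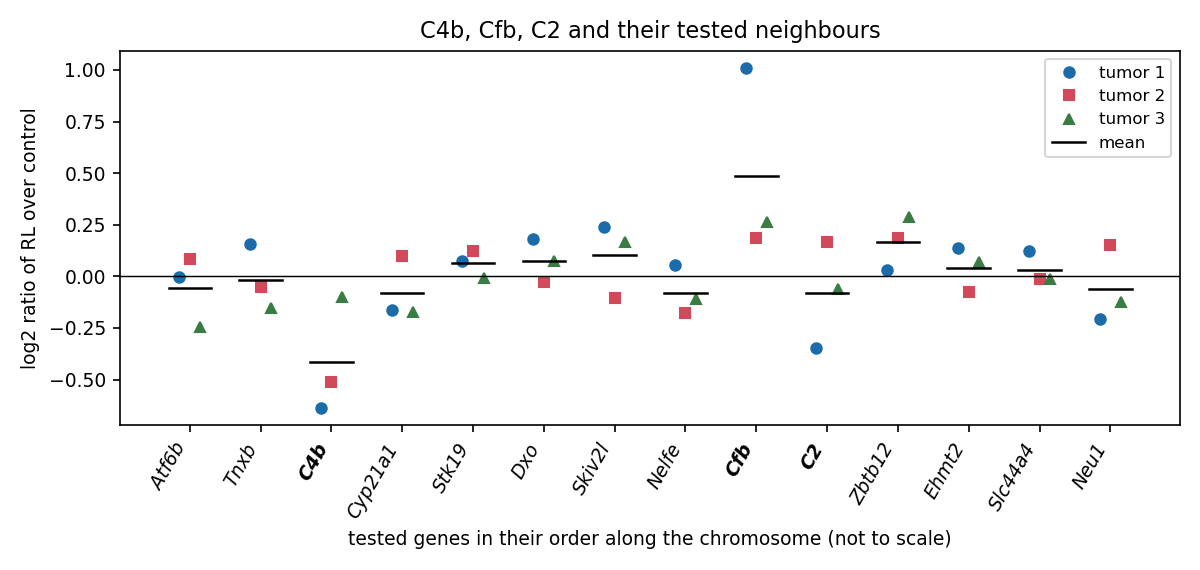
Log2 ratio of RL over control (vertical axis) in each tumor, and the mean, for C4b, Cfb, C2 (bold) and their 11 tested neighbors, in chromosomal order and not to scale. The neighbors' means lie between −0.08 and 0.17, with Cfb above them, C4b below them and C2 just below the lowest.

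Genes nearest to C3 and Cfb in their 3 ratios were found by Euclidean distance among the 14033 other named genes with a value on all 3 arrays. For C3 they were Nfkbia, Nfkbie, Spns3, C1qtnf1 and Fcgbp, at distances from 0.49 to 0.77. Nfkbia, which encodes the NF-κB inhibitor IκBα, had ratios of 1.47, 0.47 and 0.37 in tumors 1, 2 and 3. Despite its name C1qtnf1 is not a complement component, but encodes a secreted protein with a domain like that of C1q. For Cfb they were Tnfaip2, Trim47, Cd47, Lbh and Pde2a, at distances from 0.14 to 0.19. Cd47 encodes a membrane protein that restrains phagocytosis, and its ratios were 0.94, 0.31 and 0.20. Closeness over 3 arrays describes the values and says nothing of shared control.

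Genes that respond to NF-κB signaling, a pathway that RANK activates, were taken from a list of 8. All 8 were higher with RL in each of the 3 tumors, against 14.1% of all genes, and 2 were so after median centering. Their median was 0.59, with medians of 1.15, 0.45 and 0.25 in tumors 1, 2 and 3. Limma called 0 of the 8, and the dye term and the rank product called 8 and 4. All 8 were higher at an unadjusted p under 0.05 by limma, beside 761 higher among all 21743. Nfkbia (0.77) and Nfkbie (0.75) had the largest mean ratios. C3 and factor B are also acute-phase proteins, and a list of 16 other acute-phase genes was read beside them. Of the 10 tested, 2 were higher and 4 lower with RL in all 3 tumors, beside 14.1% and 13.6% of all genes. After median centering the counts of the list were 0 and 2. The median of the list was −0.23, and 1 gene, Lrg1, fell by 0.75 with an adjusted p of 0.019 by limma. Over 19 alternatives, some of which leave its mean as it was, Lrg1 stayed below 0 and passed in 13. It did not pass with processed signals, median centering, the unpaired fit or no moderation, or without tumor 1 or tumor 3. The dye term called 1 higher (Hp, at 0.31) and 5 lower, and the rank product 0 higher and 4 lower. Over all genes, the shares called higher and lower were 0.57% and 0.768% with the dye term, and 0.147% and 0.207% by rank product. Saa2, a serum amyloid A gene, had ratios of −1.12, −0.27 and −0.28.

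Beyond the 9 genes, 46 other complement genes were listed by role, and 20 were tested. None passed in limma, with or without the dye term, or by rank product. At an unadjusted p under 0.05 by limma, 0 were higher and 3 lower, beside 761 higher and 778 lower among all 21743. Their mean log2 ratios ran from −0.25 for C1qc to 0.18 for Susd4, with a median of 0.01. Among 15 starters of the classical and lectin pathways, the 7 tested were the C1q, C1r and C1s genes, and none of the mannose-binding lectins, ficolins, collectins or their proteases passed the filter on dim probes. Of 7 genes for the membrane attack complex only C8g was tested, with a mean of 0.04, and Hc (the gene for C5), C6, C7, C8a, C8b and C9 did not pass the filter on dim probes. The 4 tested fluid-phase regulators, the protease Cfi, Clu, Cpb2 and C1qbp, had means from 0.01 to 0.11. Of 7 other membrane regulators 4 were tested, with means from −0.23 for Cd55b, a close relative of Cd55, to 0.18 for Susd4. The 4 tested receptors of complement fragments had means from −0.07 for C5ar2 to −0.03 for Itgam.

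The genes for the chains of C1q, the recognition molecule of the classical pathway, are described here after their values were seen. C1qa had ratios of −0.37, −0.23 and −0.09 in tumors 1, 2 and 3. C1qb had ratios of −0.31, −0.12 and −0.01. C1qc had ratios of −0.48, −0.10 and −0.16. The 3 genes were thus below 0 in each tumor, except C1qb with the scanner's processed signals and C1qc after median centering, and none passed the adjusted threshold.

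**Figure D5:**
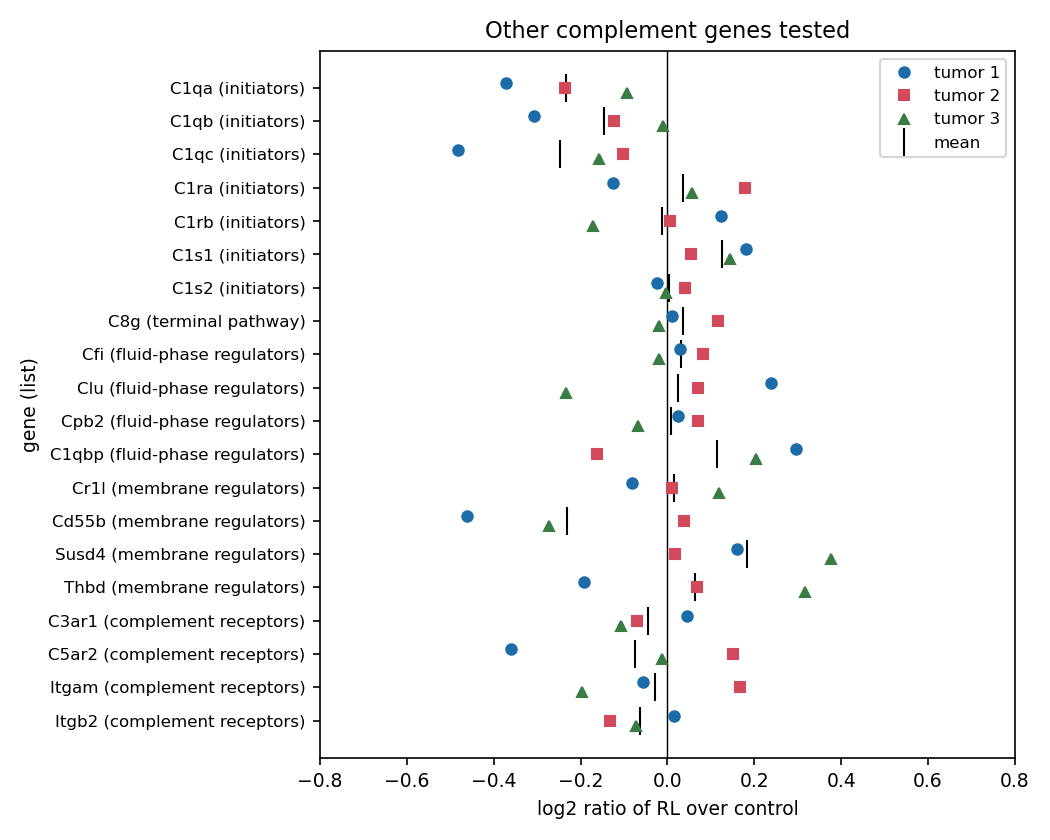
Log2 ratio of RL over control (horizontal axis) in each tumor, and the mean, of the 20 other complement genes tested, grouped by list. Means lie between −0.25 for C1qc and 0.18 for Susd4, and the 3 C1q genes are below 0 in all 3 tumors, except C1qb with processed signals and C1qc after median centering.

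C1q and properdin are made largely by macrophages and other leukocytes, and markers of cell types were therefore read beside them. All 9 macrophage markers were tested. In all 3 tumors, 0 were higher and 3 lower with RL, beside 14.1% and 13.6% of all genes, and 0 were lower after median centering. Limma called 0 of these markers, or 1 lower (Fcer1g) with the dye term, beside 0.768% of all genes called lower by that model. Calls with the dye term rest on moderation, with 1 residual degree of freedom. Their medians in tumors 1, 2 and 3 were −0.22, −0.13 and −0.02. Fcer1g (−0.41, −0.27 and −0.20) and Cd68 (−0.35, −0.13 and −0.19) had the largest mean differences. By their means 4 of the 9 lay above 0 and 5 below, and Cd14 had ratios of 0.56, −0.18 and 0.06. The processed signals of the list summed to 16017, 6855 and 9118 in the control cultures and to 22115, 6158 and 9186 with RL, with Cd14 the brightest probe and each marker well above background in at least 1 channel. Epithelial markers had a median of −0.08, and of 0.14, −0.17 and −0.12 in tumors 1, 2 and 3. Krt18 (−0.33) and Krt14 (−0.19) lay furthest from 0. The ratios of Krt18 were −0.73, 0.43 and −0.70, so its sign differed between dye orders, and its mean was −0.14 with the dye term. Epithelial signals summed to 230559, 198994 and 314911 in the control cultures and to 206045, 191680 and 273530 with RL. Fibroblast markers, all 8 tested, had a median of −0.04, and of −0.29, 0.07 and 0.03 in tumors 1, 2 and 3, with Pdgfra (−0.19) and Col3a1 (−0.09) furthest from 0. Summed fibroblast signals were 6454, 2777 and 13956 in the control cultures and 5342, 2979 and 13321 with RL. Tumor 1, where the fibroblast, macrophage, neutrophil and adipocyte medians were lowest, also had the lowest loess ratios of C4b, C2 and the C1q genes. Summed macrophage signals were higher with RL in that tumor, however, and Cfp had its lowest ratio in tumor 3. The part of cell types in these values was not tested. Of 7 neutrophil markers 4 were tested, with a median of −0.07 and S100a8 (−0.37) and S100a9 (−0.13) furthest from 0. The ratios of S100a8 were −0.78, −0.33 and 0.02 in tumors 1, 2 and 3, on both sides of 0. It passed in limma with the dye term, at an adjusted p of 0.0489, beside the same 0.768% of all genes called lower. No matched probe was found for Ly6g and Trac. The 3 tested T cell markers had a median of 0.00, with Lck (0.11) and Cd4 (−0.04) furthest from 0, while Cd3d, Cd3g and Cd8a were not well above background in any of the 6 channels. Adipocyte markers (3 tested, Fabp4 at 0.16 and Lpl at −0.11) had a median of −0.02, and endothelial markers (2 tested, Pecam1 at −0.11 and Kdr at 0.10) one of −0.01.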

How the data were processed

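For each array the authors read spots with Agilent Feature Extraction 10.7.3.1 and deposited median spot and background intensities, processed intensities and log10 ratios of Cy5 over Cy3. A second table, of log2 ratios that the authors normalized by loess and Aquantile before it was deposited, was read too. The methods describe such ratios as condition over control, while the table itself states neither scale nor direction. The columns had medians of 0.0024, −0.0011 and 0.00069 and, with the sign turned by dye order, a Pearson's r of 0.965, 0.956 and 0.962 with the values used here across genes in tumors 1, 2 and 3, so its direction was taken from the values as Cy5 over Cy3 on each array, which is RL over control for tumor 2 and the reverse for tumors 1 and 3. The tools were limma 3.58.1 and R 4.3.3. Local background was removed by normexp (offset 50, which compresses ratios of dim genes), ratios were normalized by intensity-dependent loess, spatial loess (span 0.1) and Aquantile, outlier spots (204, 195 and 223 on the 3 arrays) were dropped, and the mean was taken over spots of a probe. Probes well above background in all 3 control or all 3 RL channels were kept. A gene was represented by its brightest kept probe. Gene symbols came from RefSeq's GRCm38.p6 gene table by accession, with a match for 28026 of 55681 probes. Ratios were fitted with lmFit and eBayes (degrees of freedom 2 residual, 6.66 prior), adjusted by Benjamini-Hochberg over all 21743 genes and transcripts. The ratio pairs the cultures of a tumor, as the labels give them, and its moderated variance draws on all genes as well as on the spread between these 3 tumors. The programs were tested on simulated data.

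The members and lists were chosen with earlier results of these data known. Named were all members with every probe, other complement genes past the threshold or on 1 side of 0 on all 3 arrays with a mean of at least 0.3 in size (otherwise their range), the 5 genes nearest to C3 and to Cfb, the 2 genes of largest size in the NF-κB, acute-phase and cell type lists, and the neighbors of C2, Cfb and C4b with the next 4 genes on either side. Sequences were taken from RefSeq.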

Additional observations from a re-analysis of the deposited data

How the results depend on the processing

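In all 16 alternatives that kept the 3 tumors, and without each tumor in turn, the means of C3 and Cfb stayed above 0 and those of C4b, Cd59a and Cfp below 0. Some of these alternatives change only the test or filter and leave the means as they were. C3 passed the threshold by rank product (1.01) and, as Cfb and C4b did, with the dye term (0.90, 0.41 and −0.44) and without tumor 2, whose RL channel was Cy5 (1.24, 0.64 and −0.37). Without that tumor, dye and RL cannot be told apart. With the dye term or 2 tumors, 1 residual degree of freedom remains, so these calls rest on moderation. Leaving out 1 tumor at a time gave 0.56 to 1.24 for C3, 0.22 to 0.64 for Cfb, −0.57 to −0.30 for C4b, −0.20 to 0.052 for C2, −0.016 to 0.11 for Cd55, −0.028 to 0.055 for Serping1, −0.081 to −0.0090 for Cd59a and −0.16 to −0.0045 for Cfp. The sign reversed without tumor 1 for C2 (0.052), without tumor 2 for Cd55 (−0.0083), without tumor 3 for Cd55 (−0.016) and Serping1 (−0.028), with the dye term (−0.012) and the scanner's processed signals (−0.00082) for Serping1, and with median centering for Cd55 (−0.13) and Serping1 (−0.15). With median centering all genes had a median of −0.11 and the members one of −0.16, and relative to the median of all genes Cd55 was at −0.02, Serping1 at −0.04, Cd59a at −0.11, Cfp at −0.09, C2 at −0.06, C3 at 0.93, Cfb at 0.44 and C4b at −0.42. The cause was not tested. Leaving out 1 tumor gave members' medians from −0.022 to 0.028.

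Over all genes, 1 was higher and 5 were lower with RL. These counts became 32 and 45 by rank product, 14 and 29 with trend and robust moderation in eBayes, 124 and 167 with the dye term, 6 and 12 without background correction, 4 and 10 with an offset of 10, and 0 and 0 with the scanner's processed signals, median centering or, chosen after seeing the data, no variance moderation. They were 0 and 3 without a filter and with all 6 channels above background, and 0 and 0 in the unpaired fit with no replicate block, in which no member passed. The authors' log2 ratios gave 2 higher, and the mean over the probes of a gene gave 3 lower. Without 1 tumor, 0 to 569 were higher and 1 to 928 lower, the largest without tumor 2. The cause was not tested. Signal over background limits Cfd and the other dim genes.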
